A study of Mus musculus with 12 samples.

Results

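The interleukin-1 receptor family was followed in regulatory T cells (Tregs) through 7 genes that were taken by name from the deposited expression table: Il1r1, Il1r2, Il1rap, Il1rl1, Il18r1, Il18rap and Sigirr. All 7 were among the 17955 genes of the table and all 7 passed the low-count filter, which kept 12903 genes. Il1r2 had been picked because it was higher in the knockout, that is, it was chosen by its measured cKO against WT difference, so its values are given as a description with no test. Tests are given for the other 6 members.

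The samples were CD4+CD25+YFP+ Tregs sorted from spleen and lymph node of 7-week-old C57BL/6 mice. WT mice were Foxp3YFP-cre TKT+/+ and knockout (cKO) mice were Foxp3YFP-cre TKTfl/fl, so all 12 libraries come from mice that express Cre and the fluorescent reporter YFP under control of Foxp3, and Tkt, the gene of the pentose phosphate enzyme transketolase, is deleted where Foxp3 drives Cre. Mice of each genotype received vehicle or DMαKG, a cell-permeable ester of the metabolite α-ketoglutarate, in the drinking water from their mothers' pregnancy until adulthood. This gives 4 groups of 3 libraries: WT vehicle and cKO vehicle (replicates 2 to 4) and WT DMαKG and cKO DMαKG (replicates 1 to 3). The series' design text gives 3 mice per group.

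Receptors of this family carry immunoglobulin domains outside the cell and, in the signalling members, a Toll/IL-1 receptor (TIR) domain inside it. A ligand-binding chain joins an accessory chain, their TIR domains recruit the adaptor MyD88 and IRAK kinases, and NF-κB and MAP kinases follow. The family also holds its own brakes: the decoy IL-1R2, which binds IL-1 without a signalling domain, and the inhibitory receptor SIGIRR. In Tregs the IL-33 receptor ST2, made by Il1rl1, marks cells of a tissue-resident type, and IL-1R2 is known from activated Tregs.

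Summed estimated counts ran from 15706791 to 18878525 per library, and 12305 to 12584 genes had at least 10 counts. Tkt stood at 102 to 133 CPM (counts scaled to a common library size, here by TMM) in WT vehicle, 26.2 to 41.8 in cKO vehicle, 110 to 194 in WT DMαKG and 31.5 to 37.8 in cKO DMαKG, so every library fitted its genotype label. The Treg and T cell markers Foxp3, Il2ra, Ctla4, Ikzf2, Tnfrsf18, Cd4, Cd3e and Cd3g were present in every library and summed to 4256 to 7205 CPM. Y-linked transcripts set 3 libraries apart, with a mean log2 CPM of -1.57 in WT vehicle replicate 3, -0.37 in cKO DMαKG replicate 1 and -0.09 in cKO DMαKG replicate 3. WT DMαKG replicate 2 lay between, at 3.62, and the other 8 libraries were at 5.82 to 7.18. The labels used here do not state the sex of the mice.

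**Figure D1:**
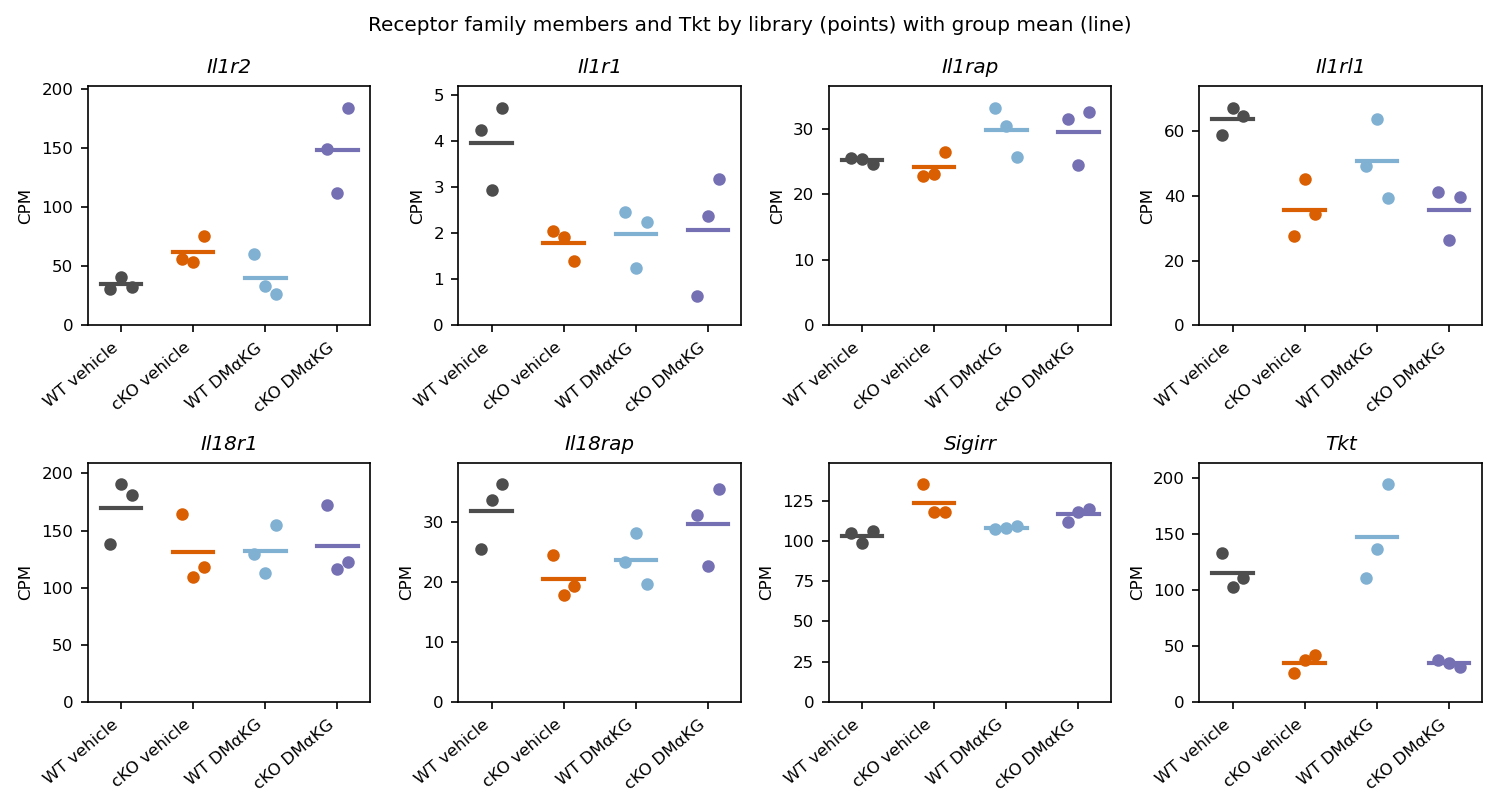
CPM of the 7 receptor genes and of Tkt in each library (points, 3 per group) with the group mean (line), each panel on its own axis from 0. Il1r2 stands at 112 to 184 CPM in cKO DMαKG and at 26.5 to 75.3 CPM in the other groups, while Sigirr stays between 98.8 and 135 CPM throughout.

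Per transcript length, Sigirr and Il18r1 were the most abundant members in WT Tregs and Il1r1 was the least. In WT vehicle the levels in TPM (counts scaled by transcript length and to a common sum in each library, mean ± SD, n = 3) ran in the order Sigirr (138 ± 5.67), Il18r1 (112 ± 21.6), Il1r2 (57.1 ± 10.1), Il1rl1 (30.3 ± 2.79), Il18rap (16.3 ± 3.32), Il1rap (13.6 ± 0.417) and Il1r1 (1.91 ± 0.403). Of the neighbours in this order the ranges of Il18rap and Il1rap overlapped and those of the others did not. Il1rl2, the IL-36 receptor gene and no member, lay beside Il1r1 at 2.13 ± 0.275 TPM, and their ranges overlapped. The gene of the receptor that transmits the IL-1 signal was thus far below that of the decoy already in WT: the ratio of Il1r2 to Il1r1 TPM was 24.7, 46.0 and 24.1 in the 3 WT vehicle libraries.

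Il1r2 changed its place in this order between groups. In WT DMαKG it again came after Sigirr and Il18r1, at 61.1 ± 24.2 TPM, with a range that overlapped that of Il18r1 (84.0 ± 19.1). In cKO vehicle it stood at 98.4 ± 17 TPM, beside Il18r1 at 83.2 ± 23.8 with overlapping ranges and below Sigirr at 159 ± 21.9. In cKO DMαKG it was the most abundant member, at 211 ± 32.8 TPM, and its lowest library (174) lay above the highest of Sigirr (152). The shares of the 7 genes' summed TPM held by Il1r2 were 14.3 to 17.1% in WT vehicle, 21.9 to 31.5% in cKO vehicle, 12.9 to 25.7% in WT DMαKG and 39.7 to 50.1% in cKO DMαKG. These orders include the gene that was picked for its pattern and carry no test.

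**Figure D2:**
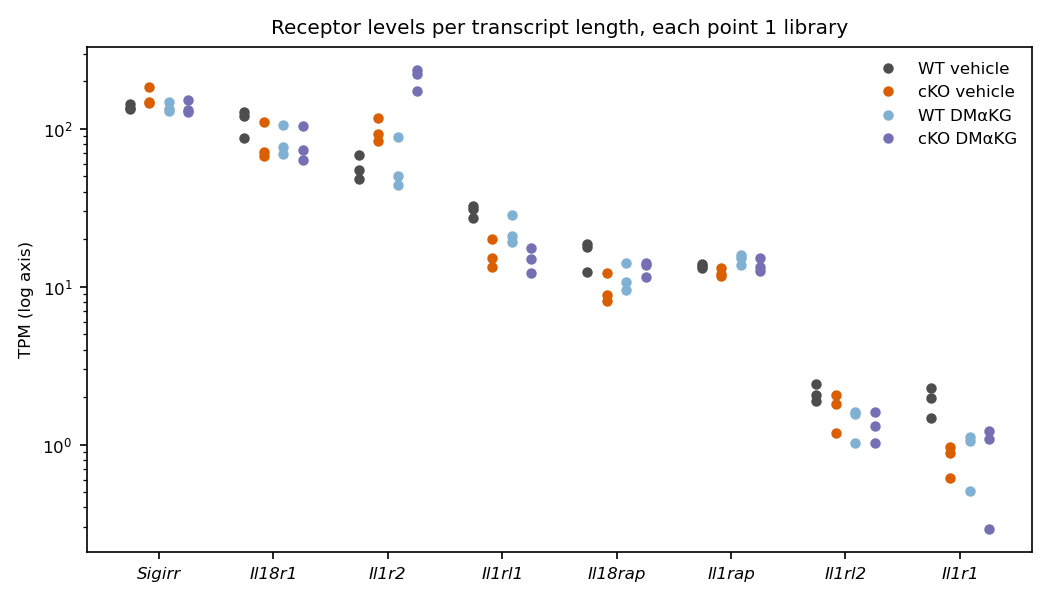
TPM of the 7 members and of Il1rl2 on a log axis, each point 1 library, coloured by group, with genes in the order of their level in WT vehicle. Il1r2 ranks after Sigirr and Il18r1 in both WT groups and lies above Sigirr in all 3 cKO DMαKG libraries, and Il1r1 is at 0.29 to 2.28 TPM in every group.

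Il1r2 makes the decoy receptor IL-1R2, which binds IL-1 and the accessory chain at the cell surface or as a shed form and has no TIR domain. Its counts per library were 30.7, 41.1 and 32.4 CPM in WT vehicle and 56.0, 54.0 and 75.3 CPM in cKO vehicle. With DMαKG they were 60.1, 33.3 and 26.5 CPM in WT and 149, 112 and 184 CPM in cKO. Within each treatment all 3 cKO libraries lay above all 3 WT libraries, and the cKO DMαKG libraries lay above every library of the other groups. WT DMαKG replicate 1, at 60.1 CPM, exceeded 2 of the 3 cKO vehicle libraries. The log2 fold change of cKO against WT was 0.83 (SE 0.28) with vehicle and 1.89 (SE 0.28) with DMαKG. DMαKG against vehicle gave 1.26 (SE 0.28) in cKO and 0.20 (SE 0.28) in WT. The WT value depended on the library at 60.1 CPM, without which it was -0.22. The difference between the genotype effects with DMαKG and with vehicle was 1.06 (SE 0.39) on the log2 scale, again with no test.

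Some libraries high in Il1r2 also stood apart in other measures. The library with the most Il1r2, cKO DMαKG replicate 3, also had the highest sum over 9 neutrophil markers, 53.3 CPM against 12.9 to 20.8 CPM in the other 11 libraries. That library also had the highest macrophage and monocyte (176 CPM), dendritic cell (274), B cell (42.1) and natural killer cell (16.9) sums. The next highest libraries had 157, 250, 24.7 and 14.5 CPM. Its excess was thus not limited to neutrophil markers. Neutrophils are known to express Il1r2. In that library S100a8 was at 11.6 CPM, S100a9 at 11 and Ngp at 9.86, against at most 0.722, 1.24 and 1.5 CPM in the other 11, and Camp was at 1.27 against at most 0.361. The neutrophil genes Retnlg and Ly6g were at 0.318 and 0.254 CPM there and at most at 0.105 and 0.0516 elsewhere, while Cxcr2, Csf3r and Mmp9 were at 12, 3.24 and 3.75 CPM and within or close to the range of the others. Without that library the log2 fold change of Il1r2 with DMαKG was 1.71. The libraries at 149 and 184 CPM of Il1r2 were also the cKO DMαKG libraries low in Y-linked transcripts. The remaining one, high in them, stood at 112 CPM. With Y-linked expression added to the model the log2 fold changes were 1.0 with vehicle and 1.67 with DMαKG. The part of these measures in the Il1r2 values was not tested further. In bulk libraries a different share of cells that express a gene and a different amount of its RNA per cell cannot be told apart, which holds for every value here.

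Il1r2 opens a row of receptor genes on chromosome 1, and the sequence before its annotated start at position 40086093 (GRCm38, plus strand) is shown because the gene carries the contrast between groups. This start lies inside the gene's RefSeq span, and in the 250 bases upstream part is annotated as exon by GENCODE, and the longest exon-free stretch is chr1:40085852-40085984 (133 bases, RefSeq, GRCm38.p6), with matches to the E-box CACGTG in capitals.
Il1r2 upstream: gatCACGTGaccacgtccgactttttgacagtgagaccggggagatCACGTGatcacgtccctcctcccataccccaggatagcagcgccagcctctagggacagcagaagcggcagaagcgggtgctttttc
The stretch held 2 matches to the E-box and none to the other motifs searched. The search covered both strands. For GATA factors the letters were AGATAA. The AP-1 family was searched as TGANTCA. For STAT factors TTCNNNGAA was used. The NFAT letters were TGGAAA. Forkhead factors were searched as TGTTTAC. The whole 250-base window held 1 STAT match besides. Of 32817 windows of 250 bases before RefSeq starts, 6.0% held the E-box at least once and 0.43% at least 2 times. The E-box was added to the search after this sequence had been seen, and a match is a description of the letters only.

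Il1r1 makes the signalling IL-1 receptor and was near the lower end of detection, with 10 to 90 estimated counts per library. It stood at 4.23, 2.94 and 4.72 CPM in WT vehicle and at 2.06, 1.92 and 1.39 CPM in cKO vehicle, so with vehicle every cKO library lay below every WT library. With DMαKG it was at 2.46, 1.25 and 2.24 CPM in WT and 0.648, 2.37 and 3.18 CPM in cKO, and these groups overlapped. The log2 fold change of cKO against WT was -1.15 (SE 0.44, edgeR adjusted p = 0.573) with vehicle and 0.06 (SE 0.45, edgeR adjusted p = 0.971) with DMαKG. In WT, DMαKG against vehicle gave -1.0 (SE 0.44, edgeR adjusted p = 0.999), and the groups did not overlap. None of these passed. The Il1r2 to Il1r1 ratio in TPM was 95.9 to 192 in cKO vehicle, 41.6 to 99.0 in WT DMαKG and 161 to 766 in cKO DMαKG, the highest from the library with 10 Il1r1 counts.

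Il1rap makes the accessory chain shared by the IL-1 and IL-33 receptors. It lay at 25.5, 25.4 and 24.7 CPM in WT vehicle, 22.9, 23.2 and 26.4 in cKO vehicle, 33.2, 30.4 and 25.7 in WT DMαKG and 31.5, 24.4 and 32.6 in cKO DMαKG. The spread over all 12 libraries was 1.45-fold from lowest to highest. Genotype gave log2 fold changes of -0.06 (SE 0.14) with vehicle and -0.01 (SE 0.14) with DMαKG, each near 0. DMαKG against vehicle gave 0.24 (SE 0.14) in WT, where the groups did not overlap, and 0.29 (SE 0.14) in cKO, where they did. Averaged over genotypes the DMαKG difference was 0.26 (SE 0.10, edgeR adjusted p = 0.236) and passed only with limma voom (0.33, adjusted p = 0.0220). Exons of the antisense gene Gm20319 overlap those of Il1rap (chr16:26581509-26730128), and no source used here says if strand entered the counting, so these values are uncertain.

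Il1rl1 makes ST2, the IL-33 receptor, as a membrane form and a soluble form that the gene-level count does not separate. It stood at 58.8, 67.1 and 64.7 CPM in WT vehicle and at 27.5, 45.1 and 34.5 CPM in cKO vehicle, with no overlap. With DMαKG it was at 49, 63.6 and 39.4 CPM in WT and 41.1, 26.2 and 39.6 CPM in cKO, where 2 cKO libraries lay just above the lowest WT library. The log2 fold change of cKO against WT was -0.83 (SE 0.22, edgeR adjusted p = 0.277) with vehicle and -0.51 (SE 0.22, edgeR adjusted p = 0.430) with DMαKG. Averaged over treatments it was -0.67 (SE 0.15, edgeR adjusted p = 0.0648), which missed the threshold of 0.05. DESeq2 passed it with vehicle (adjusted p = 0.0447) and averaged (adjusted p = 0.00398), and voom passed it averaged (adjusted p = 0.0250). Over all alternatives the adjusted p ran from 0.0447 to 0.699 with vehicle and from 0.00398 to 0.176 averaged, and the value was below 0 in every one. Without cKO vehicle replicate 3, the highest of its group, the averaged value was -0.77 (edgeR adjusted p = 0.0488). The difference between the genotype effects with DMαKG and vehicle was 0.32 (SE 0.31) and did not pass.

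Il1rl1 is known to be transcribed from a distal and a proximal promoter, and 2 of its annotated starts had upstream windows, at positions 40429570 and 40439629 (GRCm38, plus strand). They are shown because this is the tested member nearest the threshold. Both lie inside the gene's RefSeq span. Their stretches free of GENCODE exons are chr1:40429320-40429569 (250 bases) and chr1:40439379-40439626 (248 bases), from RefSeq, GRCm38.p6, with motif matches in capitals.
Il1rl1 first start: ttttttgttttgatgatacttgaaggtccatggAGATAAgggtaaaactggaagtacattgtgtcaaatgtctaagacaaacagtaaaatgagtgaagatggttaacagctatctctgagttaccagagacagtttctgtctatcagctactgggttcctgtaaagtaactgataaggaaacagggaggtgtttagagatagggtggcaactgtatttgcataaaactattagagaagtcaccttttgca
Il1rl1 second start: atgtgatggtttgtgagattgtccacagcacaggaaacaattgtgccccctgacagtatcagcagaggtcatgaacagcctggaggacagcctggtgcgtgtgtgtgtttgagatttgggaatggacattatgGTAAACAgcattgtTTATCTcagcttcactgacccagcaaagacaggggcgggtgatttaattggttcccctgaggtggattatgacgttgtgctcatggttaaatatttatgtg
Each window held 1 match to the GATA motif AGATAA, on the plus strand in the first and on the minus strand in the second, and the second also held 1 forkhead match (TGTTTAC, on the minus strand). Of the 32817 windows, 10% held the GATA motif and 3.2% the forkhead motif. Gata3, the GATA factor gene known with ST2 in T cells, stood at 98.8 to 166 CPM in WT vehicle and 72.9 to 163 CPM in cKO vehicle (log2 fold change -0.20, SE 0.33), and these groups overlapped.

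Il18r1 and Il18rap make the ligand-binding and accessory chains of the IL-18 receptor. Il18r1 was at 138, 190 and 181 CPM in WT vehicle, 165, 109 and 118 in cKO vehicle, 129, 113 and 155 in WT DMαKG and 173, 116 and 122 in cKO DMαKG. Every pair of groups overlapped, and the log2 fold change of cKO against WT was -0.38 (SE 0.20, edgeR adjusted p = 0.763) with vehicle and 0.05 (SE 0.20, edgeR adjusted p = 0.946) with DMαKG.

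Il18rap lay at 25.5, 33.7 and 36.4 CPM in WT vehicle and at 24.5, 17.8 and 19.4 CPM in cKO vehicle, with the highest cKO library just under the lowest WT library. With DMαKG it was at 23.3, 28.2 and 19.6 CPM in WT and 31.2, 22.6 and 35.6 CPM in cKO, and the groups overlapped. The log2 fold change of cKO against WT was -0.63 (SE 0.20, edgeR adjusted p = 0.425) with vehicle and 0.33 (SE 0.20, edgeR adjusted p = 0.603) with DMαKG. The difference between these effects was 0.96 (SE 0.29, edgeR adjusted p = 0.955), the smallest unadjusted p of the interaction among the 6 tested members. It did not pass over all genes. The ratio of Il18r1 to Il18rap TPM was 6.46 to 7.24 in WT vehicle, 8.14 to 9.06 in cKO vehicle, 4.92 to 11.1 in WT DMαKG and 4.47 to 7.60 in cKO DMαKG, so the ligand-binding chain's gene was higher per length in all 12 libraries.

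Il1rl1 and Il18r1 are next to each other on the same strand. These 2 genes had estimated counts that were not whole numbers in 12 of 12 libraries, and the other 5 members in 0 of 12. No source used here says how reads were divided between them, so their levels are uncertain to that extent.

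Sigirr makes an inhibitory receptor of the family that limits signalling by IL-1, IL-33 and IL-18 receptors. It lay at 105, 98.8 and 107 CPM in WT vehicle, 135, 118 and 118 in cKO vehicle, 107, 108 and 110 in WT DMαKG and 112, 118 and 120 in cKO DMαKG. All 6 cKO libraries were above all 6 WT libraries. The difference was small: the log2 fold change of cKO against WT was 0.26 (SE 0.09, edgeR adjusted p = 0.525) with vehicle, 0.11 (SE 0.09, edgeR adjusted p = 0.722) with DMαKG and 0.18 (SE 0.07, edgeR adjusted p = 0.251) averaged over treatments. The pooled SD within groups was 0.07 on the log2 scale, the lowest of the 7 members, against 0.71 for Il1r1.

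**Figure D3:**
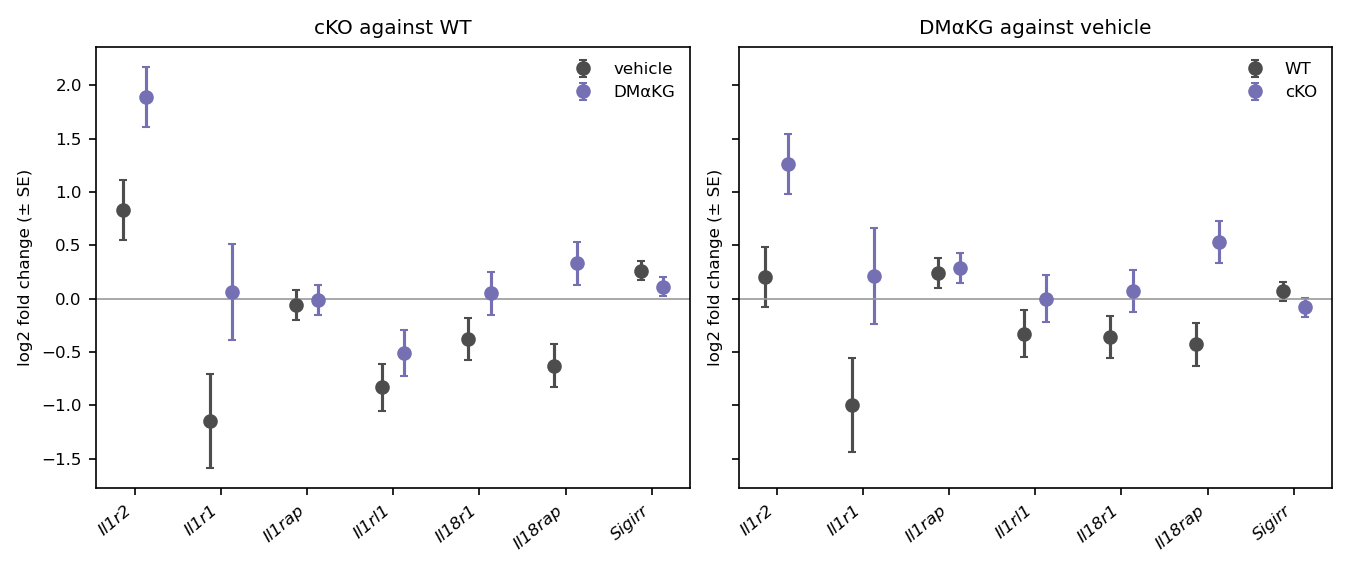
Log2 fold change with its SE (bars) of the 7 members for cKO against WT in each treatment (left) and for DMαKG against vehicle in each genotype (right), from the edgeR fit over all 12 libraries. Il1r2, picked for its rise, is at 0.83 and 1.89 on the left, and Il1rl1 is below 0 in both treatments (-0.83 and -0.51). Il1r1, Il18r1 and Il18rap are below 0 with vehicle. With DMαKG Il1r1 (0.06, SE 0.45) and Il18r1 (0.05, SE 0.20) are near 0 and Il18rap is at 0.33 (SE 0.20). The left and right panels share libraries.

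Counted together, 0 of the 6 tested members passed the adjusted threshold for cKO against WT with vehicle in edgeR, where 0.062% of the 12903 genes passed. Members with an unadjusted p under 0.05 numbered 4 of 6, beside 7.29% of all genes, and DESeq2 called 1, Il1rl1, beside 0.775% of all genes. The groups did not overlap for 4 of 6, beside 15.3% of all genes: Il1r1, Il1rl1 and Il18rap were lower in cKO and Sigirr was higher. The median log2 fold change of the 6 was -0.50 and that of all genes 0.01.

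With DMαKG, 0 of 6 passed for cKO against WT in edgeR, DESeq2 or voom, beside 0.186% of all genes in edgeR. At an unadjusted p under 0.05 there was 1 of 6 (Il1rl1), beside 10.4% of all genes. The groups did not overlap for 1 of 6 (Sigirr), beside 15.0% of all genes, and the median log2 fold change was 0.06. Averaged over treatments 0 of 6 passed in edgeR, beside 1.01% of all genes, 2 of 6 (Il1rl1 and Sigirr) had an unadjusted p under 0.05, beside 12.8%, and 1 (Il1rl1) passed in DESeq2, beside 3.09% of all genes, and in voom, beside 8.04%. Sigirr was the single tested member without overlap between all cKO and all WT libraries, beside 1.71% of all genes.

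For DMαKG against vehicle, 0 of 6 members passed in either genotype in edgeR, DESeq2 or voom, and 0.0% of all genes passed in edgeR. At an unadjusted p under 0.05 there was 1 of 6 in WT (Il1r1), beside 2.73% of all genes, and 1 of 6 in cKO (Il18rap), beside 17.3%. The groups did not overlap for 3 of 6 in WT (Il1r1, Il1rap and Sigirr), beside 8.45% of all genes, and for 0 of 6 in cKO, beside 21.1%. Averaged over genotypes 0 of 6 passed in edgeR, beside 0.00775% of all genes, 1 of 6 (Il1rap) had an unadjusted p under 0.05, beside 15.9%, and voom called Il1rap, beside 12% of all genes. All DMαKG and all vehicle libraries were without overlap for 0 of 6, beside 0.488% of all genes. For the interaction 0 of 6 passed, beside 0.0% of all genes, with 1 of 6 (Il18rap) at an unadjusted p under 0.05, beside 3.64%. These comparisons share libraries, so their counts are not independent of each other.

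On chromosome 1 the members lie in a cluster with Il1rl2: in order Il1r2, Il1r1, Il1rl2, Il1rl1, Il18r1 and Il18rap, all on the plus strand between 40084692 and 40551707 (467 kb, GRCm38). The gaps between their RefSeq spans are 97249, 8387, 37308, 133 and 14507 bases. With vehicle Il1r2 and its nearest receptor gene lay on opposite sides of 0, at 0.83 and at -1.15 for Il1r1. The 5 genes after Il1r2 had log2 fold changes of -1.15, -0.28, -0.83, -0.38 and -0.63 with vehicle, all below 0, and of 0.06, -0.02, -0.51, 0.05 and 0.33 with DMαKG. None of these 5 passed. On the other side of Il1r2, the kinase gene Map4k4 was at 0.22 (SE 0.14) with vehicle and 0.06 (SE 0.14) with DMαKG, and Creg2 at -0.20 (SE 0.36) and -0.07 (SE 0.35). Beyond Il18rap, Mfsd9 was at 0.25 (SE 0.28) and -0.46 (SE 0.29). The neighbours Rfx8, Slc9a4, Slc9a2, Tmem182 and Pou3f3 were below the low-count filter. Il1rap (chromosome 16) and Sigirr (chr7:141091175-141100597) lie elsewhere.

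**Figure D4:**
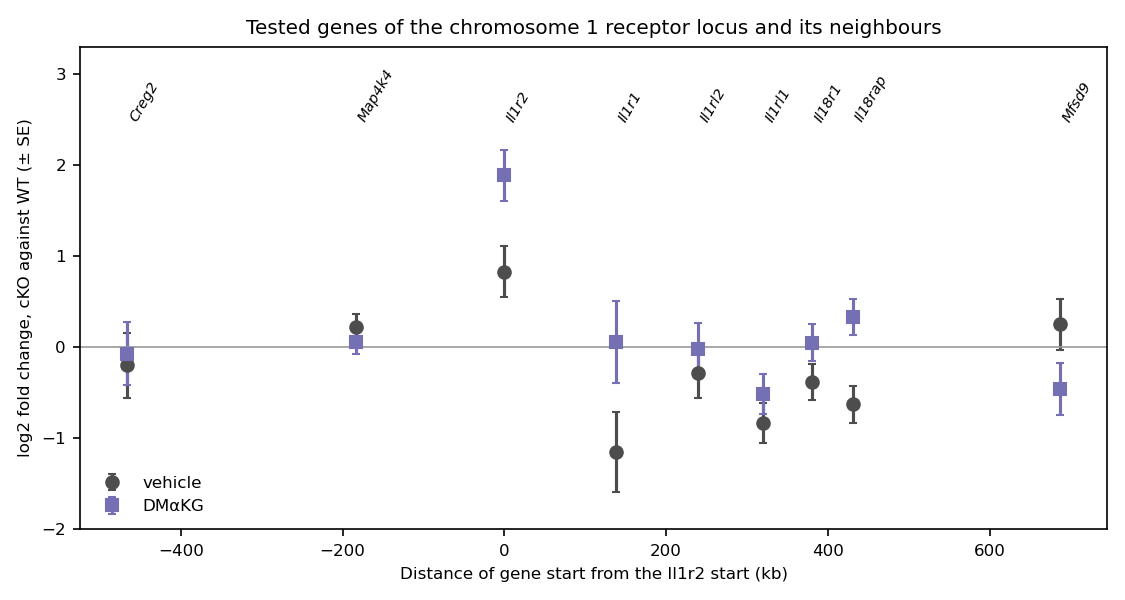
Log2 fold change of cKO against WT (with SE, from edgeR) for the 9 tested genes of the chromosome 1 receptor cluster and its neighbours, by the distance in kb of each gene's start from that of Il1r2, with vehicle (circles) and DMαKG (squares). Il1r2 stands above 0 in both treatments, and the 5 receptor genes to its right are all below 0 with vehicle. With DMαKG Il1r1, Il1rl2 and Il18r1 are near 0, Il1rl1 is below 0 and Il18rap is above 0.

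The ligands of these receptors were scarce in the sorted cells. Of 11 genes of IL-1 family ligands and soluble antagonists 6 were in the table and 5 were tested, and Il33 had a group mean of at most 0.0212 CPM. Il36a, Il36b, Il36g, Il36rn and Il1f10 were not analysed here. For cKO against WT with vehicle 0 of 5 passed in edgeR and 3 had an unadjusted p under 0.05, beside 0.062% and 7.29% of all genes. Of these 3, Il1b averaged 0.178 CPM in cKO against 0.866 in WT (log2 fold change -2.23, SE 0.85), Il18 1.20 against 2.31 CPM (-0.94, SE 0.36) and Il1a 0.321 against 0.862 CPM (-1.40, SE 0.56). With DMαKG 0 of 5 passed in edgeR and 1 had an unadjusted p under 0.05, beside 0.186% and 10.4% of all genes. All 5 were above 0, among them Il1rn, the IL-1 receptor antagonist, at 1.81 CPM in cKO and 0.902 CPM in WT (1.0, SE 0.42). Of 12 markers of macrophages and monocytes, which make IL-1, 12 were below 0 with vehicle, from -2.51 (Cd14) to -0.09 (Itgam). With DMαKG 8 of the 12 were above 0, but all were close to 0, from -0.29 (Itgam) to 0.29 (Lyz2). In either treatment 0 of these markers passed. Their sums were 57.2 to 155 CPM in WT vehicle, 40.2 to 89.0 in cKO vehicle, 44.9 to 157 in WT DMαKG and 71.1 to 176 in cKO DMαKG. Their part in the ligand values was not tested. Il18bp, the soluble IL-18 antagonist, was the most abundant of the list, at 7.13 ± 0.993 CPM in WT vehicle and 7.13 ± 2.27 CPM in cKO vehicle.

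The genes that process these ligands also had 0 of 7 past the threshold in edgeR in each genotype comparison, with 2 of 7 at an unadjusted p under 0.05 in each, beside 7.29% of all genes with vehicle, 10.4% with DMαKG and 12.8% averaged over treatments. With vehicle the smallest p-values were those of the DNA sensor Aim2 (log2 fold change -0.49, SE 0.17) and the inflammasome gene Nlrp3 (-2.28, SE 0.80). For both genes the groups overlapped. Nlrp3 was near the lower end of detection, at a mean of 0.110 CPM in cKO vehicle and 0.554 in WT vehicle. With DMαKG all 7 were above 0, led by Casp1, whose protease cleaves pro-IL-1β and pro-IL-18, at 34.9 CPM in cKO and 18.2 CPM in WT (0.94, SE 0.29, edgeR adjusted p = 0.299).

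Downstream of the receptors, 0 of 20 proximal signalling genes passed in any comparison in edgeR. For cKO against WT 3 of the 20 had an unadjusted p under 0.05 with vehicle and 0 with DMαKG, beside 7.29% and 10.4% of all genes. With vehicle 13 were above 0 and 7 below in cKO against WT, with a median of 0.05, and with DMαKG 7 were above and 13 below, with a median of -0.04. The kinase gene Map3k8 stood at 33.8 ± 6.11 CPM in WT vehicle and 51.2 ± 5.31 CPM in cKO vehicle (0.60, SE 0.20, edgeR adjusted p = 0.444), and Peli2, a ubiquitin ligase gene, at 6.59 ± 0.657 and 11.8 ± 4.77 CPM (0.84, SE 0.30, edgeR adjusted p = 0.526). Myd88, the adaptor shared by the family, stood at 72.1 ± 7.86 CPM in cKO vehicle and 50.8 ± 1.40 CPM in cKO DMαKG, without overlap (-0.50, SE 0.12, edgeR adjusted p = 0.132). In that comparison Myd88, Irak4, Tab1 and Ecsit of the 20 had an unadjusted p under 0.05, beside 17.3% of all genes. The groups did not overlap for Myd88, Irak4, Tab1 and Tab3, beside 21.1% of all genes.

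NF-κB subunit and kinase genes (0 of 8) and NF-κB feedback and IL-1 response genes (0 of 12) also had no member past the threshold for cKO against WT in edgeR with either treatment. An unadjusted p under 0.05 was reached by 2 of 8 and 1 of 12 with vehicle and 1 of 8 and 0 of 12 with DMαKG, beside 7.29% and 10.4% of all genes. Some feedback genes varied widely within groups. Tnfaip3 ran from 383 to 3710 CPM in WT vehicle and 291 to 4752 in cKO vehicle (SE 1.06). Nfkbia ran from 236 to 764 and 240 to 1174 CPM (SE 0.64). For such genes a value that did not pass says little. Relb was at 82.2 CPM in cKO vehicle and 63.2 in WT vehicle (0.38, SE 0.15), Nfkb2 was higher in cKO by 0.33 with vehicle and 0.34 with DMαKG (SE 0.15 each), and Bcl3 was at 59.3 CPM in cKO vehicle and 38.9 in WT vehicle (0.61, SE 0.26).

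Genes known from the cells that carry each receptor were counted in the same way. Of 20 tissue Treg genes known with ST2, Cxcr6, a chemokine receptor gene, fell in cKO with vehicle, from 16.3 ± 4.61 to 4.85 ± 1.5 CPM (log2 fold change -1.74, SE 0.27, edgeR adjusted p = 0.0455), where 0.062% of all genes passed. This call was held in 5 of 23 alternative settings and in 0 of the 12 that left out a library, with the adjusted p reaching 0.222 and the value between -1.91 and -1.50. With vehicle 8 of the 20 had an unadjusted p under 0.05, beside 7.29% of all genes. Of these, Cxcr6, Ccr2, S100a4, Klrg1, Pparg, Tigit and Il10 were lower in cKO and Batf was higher. With DMαKG 0 of 20 passed in edgeR and 5 had an unadjusted p under 0.05, beside 0.186% and 10.4% of all genes. These were led by the integrin gene Itgae (1.01, SE 0.21, edgeR adjusted p = 0.0945). Averaged over treatments Ccr2 (-1.75, SE 0.28, edgeR adjusted p = 0.0152) and Cxcr6 (-1.14, SE 0.19, edgeR adjusted p = 0.0143) fell, where 1.01% of all genes passed. Of the 20, 6 were above 0 and 14 below. Over the alternatives Ccr2 passed in 22 of 22 and Cxcr6 in 20 of 22, the exceptions being the replicate block and the fit without the 3 libraries that stood together on the first principal component. Markers of myeloid cells, some of which also express Ccr2, were lower in cKO with vehicle and averaged: with vehicle 12 of 12 macrophage and monocyte markers (median log2 fold change -1.08) and 8 of 10 dendritic cell markers (median -1.11) were below 0, and averaged over treatments 11 of 12 (median -0.47) and 8 of 10 (median -0.31). With DMαKG 8 of 12 macrophage and monocyte markers were above 0, and these 12 ran only from -0.29 to 0.29. The dendritic cell markers ran from -0.98 (Ccr9) to 0.98 (Cd74). Ccr2 with DMαKG stood at 14.5 CPM in cKO and 37.4 in WT, without overlap (-1.37, SE 0.39, edgeR adjusted p = 0.264), and Cxcr6 was at -0.54 (SE 0.27). The part of these markers in the falls was not tested. Klrg1, a marker of tissue Tregs, stood at 41.0 ± 11.3 CPM in WT vehicle and 10.3 ± 5.70 in cKO vehicle, without overlap, and did not pass (-1.99, SE 0.56, edgeR adjusted p = 0.369). This list was put together with earlier results of these data known.

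Of the 9 type 1 genes known with the IL-18 receptor 0 passed in edgeR averaged over treatments, and 3 had an unadjusted p under 0.05, beside 1.01% and 12.8% of all genes, with Ifng at -1.41 (SE 0.36, edgeR adjusted p = 0.101). The list went both ways for cKO against WT. Tbx21, Cxcr3, Ifng and Stat4 were below 0 in both treatments, and Ifngr1, Il12rb1, Il12rb2 and Runx3 were above 0 in both.

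Other cells that carry ST2 or IL-1R2 could be present in a sort. For type 2 innate lymphoid cells, Il5, Il13, Arg1 and Calca were under 1 CPM in every library, and the list summed to 42.6 to 69.5 CPM in WT vehicle, 42.7 to 51.5 in cKO vehicle, 37.3 to 51.9 in WT DMαKG and 34.6 to 105 in cKO DMαKG, mostly Il9r. Il17rb of this list averaged 7.8 CPM in WT vehicle and 3.63 in cKO vehicle, without overlap (log2 fold change -1.10, SE 0.37, edgeR adjusted p = 0.452), and Il9r was at -0.08 (SE 0.34). With DMαKG Il17rb averaged 7.51 CPM in WT and 4.70 in cKO, and the groups overlapped. For mast cells and basophils, Fcer1a was at 0 in every library and Cpa3, Mcpt4 and Cma1 were under 1 CPM. Ms4a2 stood at 1.81 to 3.67 CPM and Hdc at 0.226 to 1.58 CPM over all libraries. The mast cell and basophil list summed to 8.02 to 10.8 CPM in WT vehicle, 13 to 16.1 in cKO vehicle, 9.60 to 12.2 in WT DMαKG and 21.8 to 24.8 in cKO DMαKG, and Kit was its highest gene in every library. Dendritic cell markers summed to 112 to 250 CPM in WT vehicle, 109 to 176 in cKO vehicle, 120 to 171 in WT DMαKG and 175 to 274 in cKO DMαKG. Cd74 was the highest of them in every library. It averaged 72.5 and 74.2 CPM in WT and cKO vehicle. With DMαKG it averaged 62.3 CPM in WT and 123 in cKO, without overlap (log2 fold change 0.98, SE 0.30, edgeR adjusted p = 0.287). With vehicle 8 of the 10 tested dendritic markers were below 0 in cKO against WT. Of the 10, 0 were called in edgeR and 5 had an unadjusted p under 0.05, beside 0.062% and 7.29% of all genes. Among these 5 were Siglech at 1.39 CPM in cKO against 11.2 in WT, Xcr1 at 0.66 against 2.04 and Flt3 at 0.737 against 2.78. With DMαKG an unadjusted p under 0.05 was reached by Cd74, Xcr1 (0.79, SE 0.36) and Zbtb46 (0.65, SE 0.24), higher in cKO. Ccr9, lower in cKO (-0.98, SE 0.22), also reached it, beside 10.4% of all genes. Averaged over treatments, where 1.01% of all genes passed, Ccr9, a chemokine receptor gene, fell (-0.87, SE 0.16, edgeR adjusted p = 0.0213), a call that held in 14 of 22 alternatives and in 6 of the 12 that left out a library.

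The remaining marker lists had 0 members called in edgeR for cKO against WT in either treatment or averaged. Over all 12 libraries the natural killer cell list summed to 7.38 to 16.9 CPM, the CD8 T cell list to 14.3 to 24.3, the B cell list to 13.0 to 42.1 and the endothelial and stromal list to 138 to 213. With vehicle 0 genes of these lists had an unadjusted p under 0.05, and with DMαKG 1 of 4 natural killer cell genes and 1 of 7 B cell genes, beside 7.29% and 10.4% of all genes.

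Kit, a receptor tyrosine kinase gene, was also the gene whose pattern over the 12 libraries was most like that of Il1r2. Its log2 CPM correlated with that of Il1r2 at r = 0.95, followed by Ift88 (0.93) and Gabarapl1 (0.92), among 9818 genes with a mean of at least 5 CPM. Kit stood at 5.51 ± 1.12 CPM in WT vehicle, 10.3 ± 1.66 in cKO vehicle, 7.00 ± 0.757 in WT DMαKG and 19.4 ± 0.570 in cKO DMαKG. Since Kit was chosen for its likeness to Il1r2, its log2 fold changes of cKO against WT, 0.90 (SE 0.18) with vehicle and 1.47 (SE 0.18) with DMαKG, are a description with no test.

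The genes most like each other member were Adal (r = 0.88), Luc7l (0.88) and Dcaf6 (0.87) for Il1r1, and Tsn (0.96), Fcrl1 (0.95) and Lrrc40 (0.93) for Il1rap. For Il1rl1 they were Mmd, Adam8 and Klrg1 (0.89 each). For the IL-18 receptor chains they were Cd200r1 (0.89), AU020206 (0.88) and Tpgs2 (0.87) with Il18r1, and Gabpb1 (0.92), BC055324 (0.84) and Fmr1 (0.83) with Il18rap. Sigirr was most like Lama5 (0.93), Adam9 (0.91) and Rnf157 (0.90). All these correlations are over the same 12 libraries in 4 groups, share depth and scaling, and describe likeness only.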

How the data were processed

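RNA of 12 libraries was sequenced on an Illumina instrument, with the NEBNext Ultra RNA kit per the series' design text. Tools listed without a role in the submitters' processing notes are featureCounts 1.5.0-p3, HISAT2 2.0.5 and DESeq2 1.16.1, and the build is mm10. The authors deposited 1 table of 17955 genes with estimated counts, FPKM (per transcript length and library size) and TPM (per length, the same sum in each library). FPKM was not used, and the deposited TPM served only for levels between genes. Of the estimated counts 36.0% were not whole and were rounded, although the tests had been planned for whole counts. No source used here says if strand entered the counting.

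Counts were tested in edgeR 4.0.16 (R 4.3.3) by the quasi-likelihood test with robust estimation (chosen after the data had been examined, as in an earlier analysis of them), TMM scaling and the expression filter (12903 genes), 1 mean per group, all 12 libraries and 8 residual degrees of freedom, with Benjamini-Hochberg adjustment over all genes tested and a threshold of 0.05. The common biological coefficient of variation was 19.7%. Groups came from sample titles. Symbols and IDs come from the table, and 17901 IDs matched RefSeq (GRCm38.p6), which gave coordinates and upstream sequences for 6 of the 7 members, with exons from GENCODE. Errors are SDs over 3 libraries. P-values measure the spread between these mice. Treatment began in the mothers' pregnancy, and the labels used here do not give litter or cage. If mice of a group shared a litter or cage, the p-values do not measure the spread between litters or cages.

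The members, lists, tests and alternatives were chosen with earlier results of these data known. By rule the text names every member, the tested genes of the receptor cluster, and from each list the members called or, where none was called, some of those with the smallest p, and the genes most like each member; Gata3 was named for its role. Results of 1 list are not reported here. Alternatives were other scalings and filters, DESeq2 1.42.0, limma 3.58.1 voom, fits on the groups compared, a replicate block, a Y-linked covariate, 3 libraries left out, each library left out and, added after seeing the data, robust estimation off. The fit was tested on simulated data.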

Additional observations from a re-analysis of the deposited data

How the results depend on the processing

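Over 39 log2 fold changes of members, 844 of 886 values under the alternatives kept their direction and their side of the threshold, or, for Il1r2, stayed within the spread between replicates. The number of tested members called, 0 of 6 in every comparison, became 1 (Il1rl1) for cKO against WT with vehicle under DESeq2. Averaged over treatments it became 1 (Il1rl1) under DESeq2, voom and the Y-linked covariate (edgeR adjusted p = 0.0425), and ranged from 0 to 1 with each library left out. For DMαKG averaged over genotypes it became 1 (Il1rap) under voom.

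Values near 0 changed sign. Il1r1 for cKO against WT with DMαKG was -0.90 with voom, and -0.37 to 0.48 with a library left out; its DMαKG value in cKO was -0.88 with voom, and -0.23 to 0.63. Il1rap was 0.01 with the Y-linked covariate with vehicle; with DMαKG it was 0.02 with upper-quartile scaling, 0.0091 with at least 1 CPM in 6 libraries and -0.11 to 0.13 with a library left out, and averaged -0.09 to 0.03. The DMαKG value of Il1rl1 in cKO was 0.0058 with DESeq2 size factors, 0.04 with upper-quartile scaling, 0.0031 with no filter, 0.02 with the 1 CPM filter, 0.006 with DESeq2 and -0.16 to 0.22 with a library left out. Il18r1 was -0.06 with the Y-linked covariate, both for genotype with DMαKG and for DMαKG in cKO, and -0.15 to 0.18 and -0.14 to 0.27 with a library left out. Il1r2 in WT with DMαKG was -0.22 to 0.43. The cause was not tested.

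With the replicate number as a block 0 of 6 members were called in each comparison, Il1r1 for genotype with DMαKG was -0.05 and Il18r1 for DMαKG in cKO was -0.05. Same-numbered libraries of the 2 genotypes correlated at -0.12, 0.14 and 0.47 with vehicle and at -0.25, -0.09 and -0.28 with DMαKG. Libraries with different numbers were not compared, so these values cannot settle if the numbers pair the mice.

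The share of all genes called depended on the tool. With vehicle 8 genes passed, against 100 in DESeq2, 245 in voom, 1 with the replicate block, 0 on the groups compared alone and 3 without robust estimation, and 1 to 5 with a library left out. With DMαKG 24 passed, against 143, 237, 0, 3 and 9, and 1 to 34. Averaged over treatments 130 passed, against 398, 1038 and 12, and 52 to 163. For DMαKG in cKO 0 passed, against 385, 450 and 0, and 0 to 137, and averaged over genotypes 1, against 344, 1546 and 0, and 0 to 624. With 3 libraries per group the median SE of a log2 fold change was 0.18, and Il1r1 at 10 to 90 counts had 0.44.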
